A study of Mus musculus with 7 samples.

Results

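The genes described here encode the subunits of the 3 nuclear RNA polymerases and of Mediator, the complex that links transcription factors to polymerase II. They were chosen by name: every protein-coding gene whose mouse symbol begins with Polr1, Polr2 or Polr3, or is Med followed by a digit. The rule found 58 genes, 28 for polymerase subunits and 30 for Mediator subunits, among the 55487 genes of the deposited table of raw counts (21974 of them protein-coding). Of the 58, 54 passed the study's filter, which asks for 10 or more counts in 2 or more libraries of any one condition and left 10311 genes to test. Med11, Med16, Med20 and Med29 were not. 3 polymerase I subunits stand in the annotation under the older names Cd3eap, Twistnb and Znrd1, and are given apart below.

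The RNA came from mouse embryos at E11.5. Cells of the intra-aortic hematopoietic clusters (IAHC), the clusters in the dorsal aorta of the aorta-gonad-mesonephros region (AGM) in which the first hematopoietic stem cells arise, were sorted as CD31+cKIT+GFI1+ from animals whose strain the labels give as CD1/Gf1+, a line that reports GFI1. All of them, controls included, spent the night in compound E (compE), which stops γ-secretase from cutting Notch and so keeps its signaling part at the membrane. They were then washed, divided into sets of 300 to 400 cells and kept for 4 h in methylcellulose with ethynyl uridine (EU), which marks newly made RNA for capture, together with the DMSO vehicle (the washout, 3 libraries), with compE again (2 libraries) or with the recombinant Notch ligand Fc-JAG1 (2 libraries). The labels number the libraries by embryo, while the study describes the cells as taken from pools of embryos, so a numbered embryo here may stand for a pool. The numbers are 1 to 3 for the washout, 1 and 2 for compE, and 1 and 3 for Fc-JAG1. The labels and the methods give the doses in different units, so no dose is printed here. In RNA from a set of cells, fewer cells of a type and less RNA per cell cannot be told apart.

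Each nuclear polymerase reads its own class of genes. Polymerase I makes the large ribosomal RNA precursor, polymerase II makes messenger RNA and many regulatory RNAs, and polymerase III makes transfer RNA, 5S ribosomal RNA and other short RNAs. A catalytic core of the largest and second largest subunits is completed by subunits that 2 or all 3 enzymes share. Mediator is built of a head and a middle that touch polymerase II, a tail that many activators bind, the scaffold subunit Med14 that runs through them, and a kinase module that binds reversibly and holds Med12 and Med13 or their paralogs. In blood formation, Mediator subunits are known as partners of lineage transcription factors. In Notch signaling, the kinase module is known for its part in the turnover of the cleaved receptor.

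Total counts ran from 21652927 to 33974693 per library. The share of the genes tested that reached 10 counts ran from 56.2% in washout 1 to 94.2% in washout 2, and was 92.4% in compE 2 and 90.5% in Fc-JAG1 1, against 68.0% to 71.1% in washout 3, compE 1 and Fc-JAG1 3. Counts of mitochondrially encoded genes took 12.7%, 7.07% and 7.35% of washout 1, compE 1 and Fc-JAG1 3 and 1.14% to 2.48% of the other libraries. Of the markers of the sorted cells, Kit, Runx1 and Pecam1 (CD31) reached 10 counts in all 7 libraries. Pecam1 did so narrowly in washout 1 (18 counts) and Fc-JAG1 3 (11), against 1186 to 6314 elsewhere. Ptprc (CD45) had 3 counts in washout 3 and reached 10 in the other 6, and Cdh5, an endothelial marker, had 139 counts in washout 1 and 0 to 3 elsewhere. Gfi1, the gene behind the sorting reporter, had 0 counts in 4 libraries (washout 1, both compE libraries and Fc-JAG1 3) and 12 in washout 2. Macrophage markers summed to 421 to 522 CPM (counts scaled by TMM library sizes, per 1000000) in the washout, to 103 and 356 in compE, and to 507 and 151 with Fc-JAG1, with 4, 7 and 4 of the 7 markers at 10 counts in the washout, 2 and 5 in compE, and 6 and 3 with Fc-JAG1, and C1qa at 0 in 6 libraries. Erythrocyte markers summed to 17.4 to 48.6 CPM in the washout, 16.6 and 29.4 in compE, and 63.5 and 90.9 with Fc-JAG1, with 1 to 4 of the 6 markers at 10 counts in any library and Alas2 at 0 in all. Neural markers stayed at 8.34 CPM or less in every library, with Sox2 and Tubb3 at 0 in all 7. The part of these differences in the results below was not tested.

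Detection of the subunit genes split the libraries in the same place. At a minimum of 10 counts, washout 1, 2 and 3 had 33, 56 and 40 of the 58 genes, compE 1 and 2 had 37 and 56, and Fc-JAG1 1 and 3 had 56 and 40. The 3 libraries with 56 genes, washout 2, compE 2 and Fc-JAG1 1, belong to 3 different conditions, so no condition was set apart. Among the 54 genes tested the shares were 61.1% in washout 1, 68.5% in compE 1, 74.1% in washout 3 and Fc-JAG1 3, and 98.1% or more in the other 3 libraries, and no library departed from its share over all genes tested by 10 points. Together the 58 genes took 0.498% to 0.622% of all counts in every library, and the summed CPM was 6540, 4910 and 5910 in the washout, 5600 and 5430 in compE, and 5580 and 6450 with Fc-JAG1, so the groups overlapped.

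**Figure D1:**
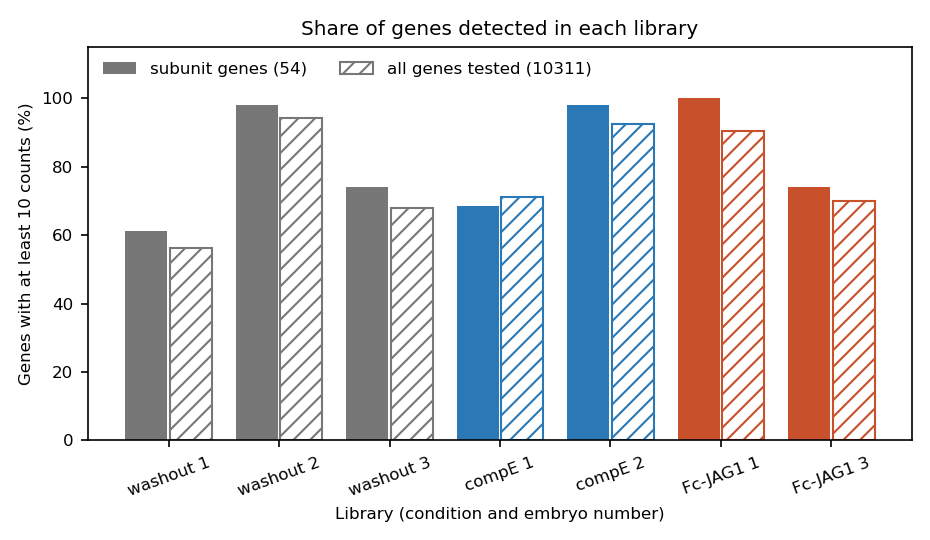
Share of genes (y axis, percent) with at least 10 counts in each of the 7 libraries (x axis). Filled bars stand for the 54 subunit genes tested and hatched bars for all 10311 genes tested, and washout 2, compE 2 and Fc-JAG1 1 are above 90% in both.

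Within a library a subunit gene was often either plainly counted or nearly absent. Washout 1 had 13 of the 58 genes at 0 counts and 12 more at 1 to 9, and compE 1 had 16 at 0 and 5 at 1 to 9. In all, 18 genes reached 10 counts in each of the 7 libraries, as did 2875 (21.5%) of the 13354 protein-coding genes that reached it in any. A further 15 reached it in 6 libraries and 5 in 3 or fewer, among them Med20, a head subunit with 0 counts in all 7. A count of 0 allows a level of up to 0.0883 to 0.139 per 1000000 total counts, depending on the library, by counting error only. Of the exonic bases of Med20, 28.4% are shared with other annotated genes, among them the readthrough gene Gm20517, which had 187 counts in washout 2 and 0 in the other libraries.

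**Figure D2:**
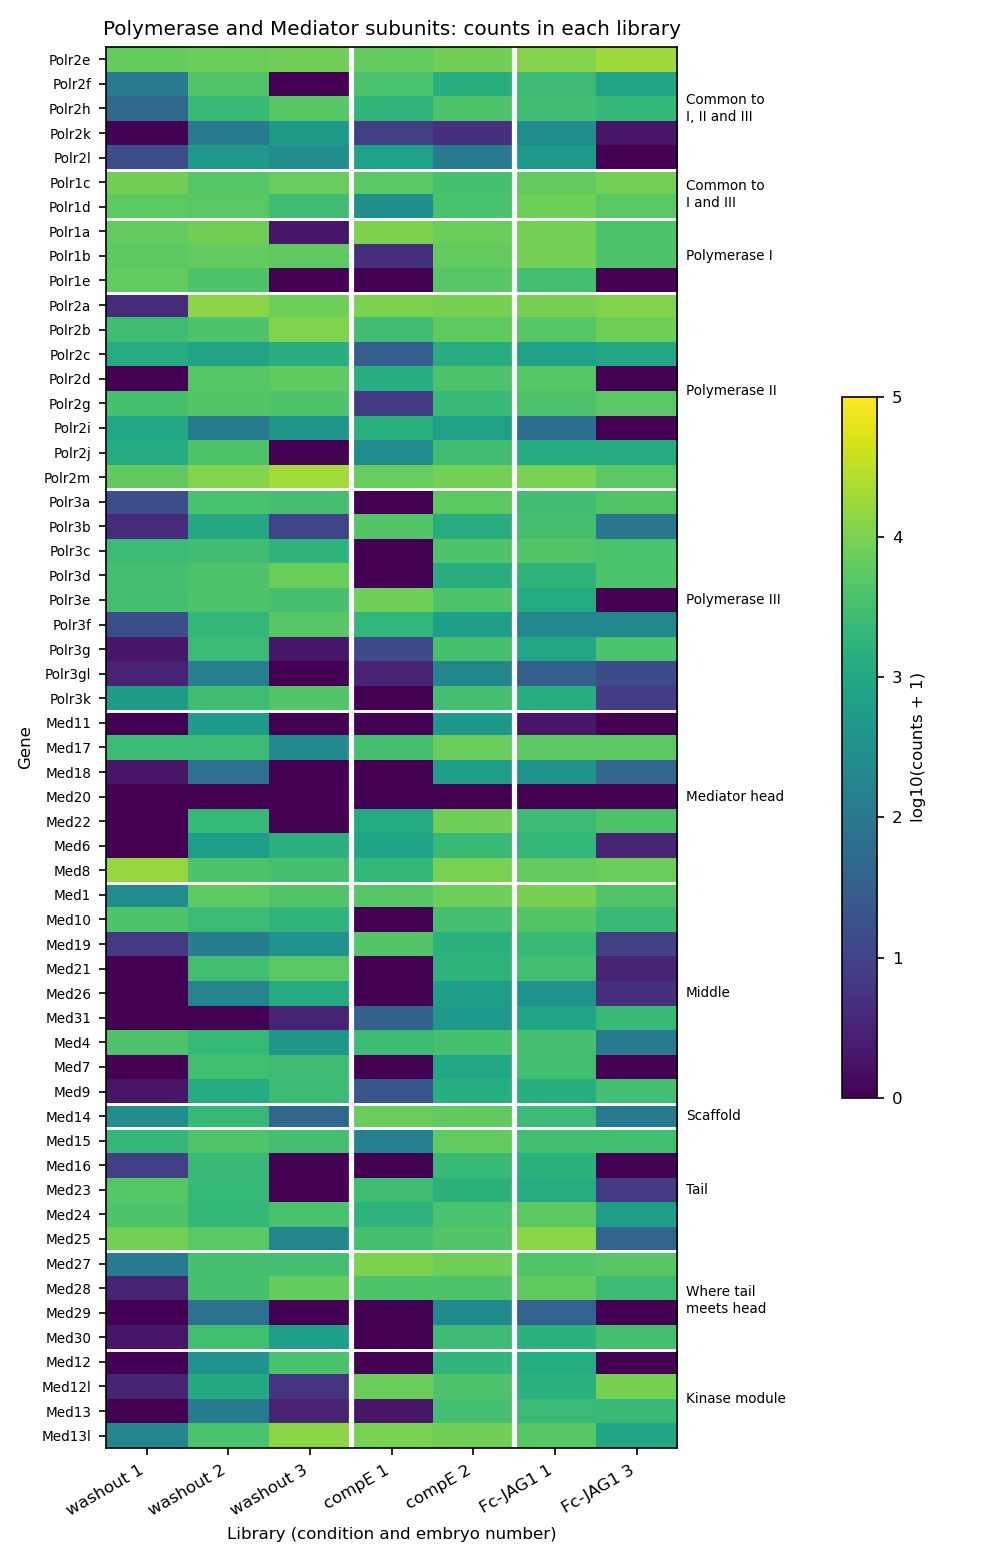
Counts of 57 subunit genes (rows, grouped by complex) in the 7 libraries (columns, white lines between conditions) as log10(counts + 1), from 0 (dark) to 5 (bright). Dark cells gather in the columns of washout 1, washout 3, compE 1 and Fc-JAG1 3, and Med20 is dark in all columns.

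The steadiest genes were small subunits and the second largest subunit of polymerase II. Polr2e, a subunit common to polymerases I, II and III, had 6486, 7282 and 8291 counts in the washout, 6358 and 8744 in compE, and 11887 and 18316 with Fc-JAG1. Polr2m, also known as Gdown1 and bound to polymerase II, had 6008, 11719 and 20227, then 6823 and 8948, then 9796 and 5453. Polr1c, shared by polymerases I and III, had 8463, 4745 and 6782, then 5271 and 3491, then 6254 and 9076. None of the 3 was called in any comparison, although the CPM of Polr2m was lower in both compE (270 and 231) and both Fc-JAG1 libraries (269 and 231) than in any washout library (349, 325 and 721). Per kilobase of exon, the median over the 7 libraries was 111 CPM for Polr2m and for Polr2e, followed by Polr2g at 104, and these levels overlap (Polr2m ran from 95.3 to 297 CPM per kilobase and Polr2e from 75.6 to 291). Where whole gene spans are used as lengths, since nascent RNA holds introns, Polr2e came first with a median of 76.8 CPM per kilobase, followed by Polr1c at 50.4 and Polr2m at 36.0.

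Among the other genes counted in every library, Polr2b, the second largest subunit of polymerase II, ran from 2777 to 10992 counts with a median of 4710. Med8, a head subunit, ran from 2045 in compE 1 to 16434 in washout 1. Med1, the middle subunit that nuclear receptors and GATA factors bind, had 272 counts in washout 1 and 4377 to 9299 in the other 6 libraries. Med17, the head subunit on which the head is assembled, ran from 244 in washout 3 to 7086 in compE 2. Med14, the scaffold, had 49 counts in washout 3, 113 in Fc-JAG1 3 and 276 in washout 1, against 2267 to 7172 in the other 4 libraries. For Med1 and Med14 the low libraries are thus among those with fewer genes detected. Polr1d, Polr2c, Polr2h, Polr3f, Med4, Med13l, Med15, Med24, Med25 and Med27 complete the 18, and their lowest counts ran from 15 (Polr3f, washout 1) to 621 (Med24, Fc-JAG1 3).

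The largest subunits, which form the catalytic cleft, were each missing from a different library. Polr1a of polymerase I had 6350, 8389 and 1 counts in the washout, 10099 and 7514 in compE, and 8824 and 3974 with Fc-JAG1. Polr2a of polymerase II had 3, 13411 and 7760, then 10431 and 9503, then 9503 and 11087. Polr3a of polymerase III had 15, 3667 and 3281, then 0 and 5396, then 2952 and 4357. So Polr1a was at 1 count in washout 3, Polr2a at 3 in washout 1 and Polr3a at 0 in compE 1, while another library of the same condition had 8389, 13411 and 5396 counts of them. The second largest subunit of polymerase I, Polr1b, fell to 4 counts in compE 1 and ran from 4007 to 8823 elsewhere. That of polymerase III, Polr3b, had 3, 1033 and 9, then 4555 and 1300, then 3359 and 91.

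Of the 28 polymerase genes, 21, 28 and 20 reached 10 counts in the washout, 19 and 27 in compE, and 28 and 21 with Fc-JAG1. Of the 30 Mediator genes, 12, 28 and 20 did in the washout, 18 and 29 in compE, and 28 and 19 with Fc-JAG1. Washout 1 thus held 21 of 28 polymerase genes but 12 of 30 Mediator genes. In that library the head had 2 of its 7 genes, the middle 3 of 9, the tail 4 of 5 and the kinase module 1 of 4. The summed CPM of the polymerase genes was 3740, 3180 and 3790 in the washout, 2940 and 2670 in compE, and 2980 and 4030 with Fc-JAG1. Both compE libraries were below the other 5, though compE 1 (2940) was close to Fc-JAG1 1 (2980). The summed CPM of the Mediator genes was 2800, 1730 and 2130, then 2660 and 2760, then 2600 and 2430. The washout range thus took in both other conditions, and both compE libraries were above both Fc-JAG1 libraries. No test was made of these sums.

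Most of the genes not named elsewhere were also absent from 1 or more libraries. Polr1e of polymerase I had 6177, 4151 and 0 counts in the washout, 0 and 5026 in compE, and 3179 and 0 with Fc-JAG1, and was absent from 3 libraries of 3 conditions. Among the small shared subunits, Polr2k ran from 0 to 520 and Polr2l from 0 to 788. In polymerase III, Polr3c ran from 0 to 4445 and Polr3k from 0 to 4423. In Mediator, Med6 ran from 0 to 2331, Med9 from 1 to 3159, Med19 from 6 to 4572 and Med28 from 2 to 6655. Med23, the tail subunit through which ELK1 and E1A act, had 4816, 2258 and 0, then 2983 and 1608, then 1232 and 6. Med11, Med16 and Med29, which were not tested, reached 10 counts only in libraries with many genes: Med16 had 2486 in washout 2, 2347 in compE 2 and 1564 in Fc-JAG1 1, against 0 to 8 elsewhere.

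The first question of the design is what the ligand Fc-JAG1 changed in cells released from the inhibitor. With edgeR no subunit gene passed an adjusted p of 0.05 between Fc-JAG1 and the washout, and 0 of 9569 genes did overall (0.0%). An unadjusted p under 0.05 was reached by 3 of the 54 (Med13, Med18 and Med31) and by 400 of all genes tested. The median log2 fold change was 1.02 over the 54 genes and 0.76 over all genes tested. With the size factors of DESeq2 in place of TMM these medians were 0.67 and 0.41, and the number of subunit genes above 0 moved from 37 to 32.

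DESeq2, the tool the study used, with the same terms for embryo number and condition, called 14 subunit genes higher and 2 lower with Fc-JAG1. That is 25.9% and 3.7% of the 54, where 16.9% and 5.11% of the 9569 genes tested were called higher and lower. Among the 14 were 10 Mediator genes (Med7, Med12, Med12l, Med13, Med18, Med21, Med22, Med26, Med30 and Med31) and the polymerase genes Polr1a, Polr2f and Polr3g. The 2 lower were Polr2i and Polr3e. No gene of the tail (4 tested) or the scaffold (1 tested) was among these calls, and 38 of the 54 did not pass. Of the 4 genes of the kinase module 3 were called, 1 of them Med12, which went opposite ways in the 2 embryos. Groups this small cannot be set apart from the 16.9% of all genes called higher, and no test was made of them. Of the 14, 12 had under 10 counts in washout 1, as did 81.9% of the 1619 genes called higher and 43.8% of the genes tested. In washout 3, 9 of the 14 were under 10 counts, as were 71.2% of the genes called higher and 3295 of the 10311 genes tested. Their part in the calls was not tested. Leaving out each of the 7 libraries in turn gave 7 to 9 genes higher, and the fit with no term for the embryo gave 1.

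**Figure D3:**
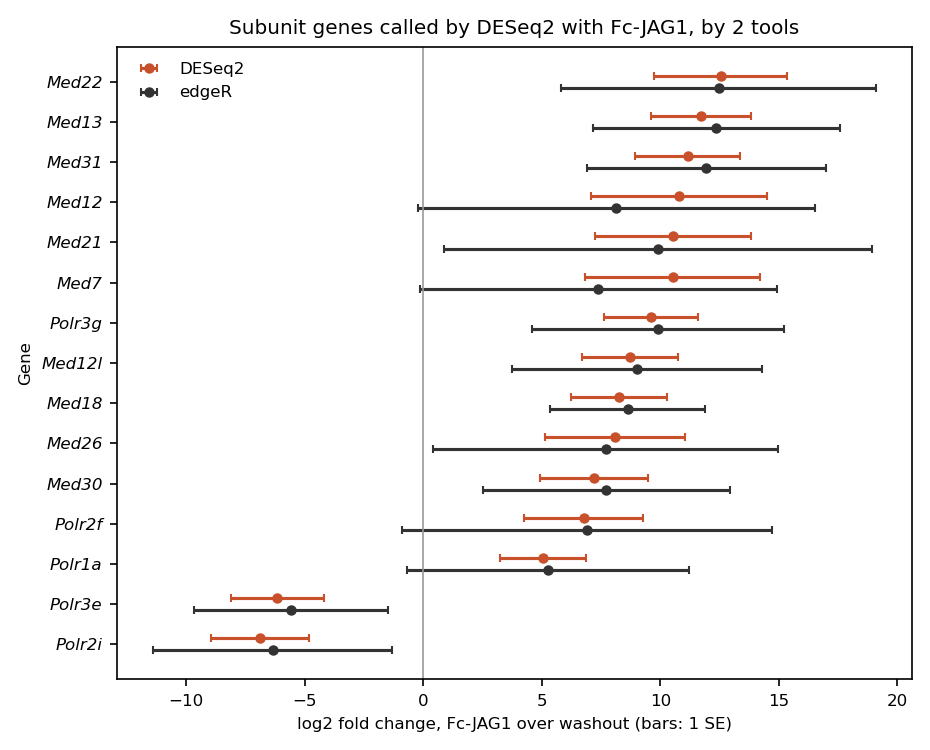
Log2 fold change of Fc-JAG1 over washout (x axis) for 15 of the 16 subunit genes that DESeq2 called (y axis), from DESeq2 (orange) and edgeR (black), with bars of 1 SE. Both tools give each gene the same sign, the edgeR bars are wider for all 15 genes, and edgeR called none of them.

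Med31 and Med13 were the calls that held without each of the 7 libraries. Med31 passed the filter on low counts only through compE and Fc-JAG1, and Med13 only through Fc-JAG1, so each was tested because of the conditions in which it was high, and the values below are a description. Med31, a small conserved subunit of the middle (chr11:72211724-72215592, minus strand, GRCm38), had 0, 0 and 2 counts in the washout, 33 and 500 in compE, and 913 and 2333 with Fc-JAG1. Every Fc-JAG1 library was above every compE library and every compE library above every washout library. Over the summed counts, 3246 with Fc-JAG1 against 2 in the washout, the ratio was 2200 after scaling for depth, with an exact counting interval of 608 to 18200 (95%) that leaves out the spread between libraries. DESeq2 gave a log2 fold change of 11.15 ± 2.21 (SE, 3 washout and 2 Fc-JAG1 libraries; adjusted p = 3.65e-05, and 1.64e-05 to 0.0125 in its 10 alternatives), the only one of the 16 calls that held in all 10, of which 3 have a single library in one of the conditions compared. With edgeR it was 11.94 ± 5.04 with an unadjusted p of 0.0301. The annotation gives 26.3% of the exonic bases of Med31 also to 4930563E22Rik, which had 0 counts in all 7 libraries.

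Med13, the subunit of the kinase module that ties it to the core (chr11:86267033-86357602, minus strand), had 0, 130 and 2 counts in the washout, 1 and 3147 in compE, and 2607 and 2310 with Fc-JAG1. Both Fc-JAG1 libraries were above all washout libraries, and compE 2 (81.2 CPM) lay between them (71.6 and 97.8). DESeq2 gave 11.73 ± 2.11 (adjusted p = 5.17e-06, and 2.61e-06 to 0.781 in its 10 alternatives), a call that held without each of the 7 libraries and was lost in both fits with no term for the embryo. With all libraries and no such term the log2 fold change was 6.30. The edgeR value was 12.36 ± 5.21 with an unadjusted p of 0.0298. Fitted folds of this size rest on counts of 0 to 2 in washout 1 and 3 and do not measure how large a change was.

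Med22 and Med12l also had every Fc-JAG1 library above every washout library in CPM and were called by DESeq2. Like Med31, both passed the filter on low counts only through compE and Fc-JAG1, so their values are a description. Med22, a head subunit (chr2:26905262-26910677, minus strand), had 0, 2208 and 0 counts in the washout, 1117 and 8091 in compE, and 2699 and 4110 with Fc-JAG1. Med12l, the paralog of Med12 in the kinase module (chr3:59005825-59318682, plus strand), had 2, 1073 and 5, then 7694 and 3999, then 1586 and 9438. In both genes washout 2, which has the most genes of any washout library, was nearer to Fc-JAG1 1 than to Fc-JAG1 3, with 61.2 CPM against 74.1 and 174 for Med22, and 29.7 against 43.5 and 400 for Med12l. Their calls held without 5 of the 7 libraries and were lost without washout 3 or without Fc-JAG1 3. Washout 3 and Fc-JAG1 3 are the 2 libraries of embryo 3, and without either the other no longer bears on the comparison. Of the exonic bases of Med12l, 17.3% are shared with Gm43570, Igsf10 and P2ry12.

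Across all 54 genes, 8 (14.8%) had both Fc-JAG1 libraries above all 3 washout libraries in CPM and 3 (5.56%) had both below, against 11.0% and 7.26% of the 9569 genes tested. Among the 8 were Med1, Med17 and Med27, which were not called. Med1 had 255 and 185 CPM with Fc-JAG1 against 15.8, 157 and 160 in the washout.

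Polr3g, Med18 and Med30 were called higher although 1 washout library reached the Fc-JAG1 range. Polr3g passed the filter on low counts only through compE and Fc-JAG1, and Med18 only through Fc-JAG1, so their values are a description. Polr3g, the form of a polymerase III subunit known from embryonic stem cells (chr13:81673843-81711013, minus strand), had 1, 2584 and 1 counts in the washout, 13 and 3457 in compE, and 950 and 3870 with Fc-JAG1. Med18, a head subunit at the contact with polymerase II, had 1, 76 and 0, then 0 and 598, then 382 and 43. Med30, at the border of head and tail, had 1, 3121 and 652, then 0 and 2640, then 1668 and 3405. In each of the 3 genes both embryos with a pair, 1 and 3, were higher with Fc-JAG1, while washout 2 has no Fc-JAG1 partner. Polr2f, a subunit common to all 3 polymerases, did the same with 109, 4419 and 0 counts in the washout, 3890 and 1405 in compE, and 2641 and 837 with Fc-JAG1.

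Another 5 of the 14 calls went opposite ways in the 2 embryos. Med12, the subunit that activates the Mediator kinase, had 0, 345 and 3709 counts in the washout, 0 and 1987 in compE, and 1219 and 0 with Fc-JAG1. Med7, which with Med21 forms the hinge of the middle, had 0, 3030 and 2824, then 0 and 970, then 3076 and 0. Med21 had 0, 2999 and 5312, then 0 and 1823, then 3035 and 2. Embryo 1 thus went from 0 to 1219 counts or more in these 3 genes, and embryo 3 from 2824 or more to 2 or fewer. Med26, the middle subunit that recruits elongation factors, showed the same with 0, 178 and 1206, then 0 and 621, then 368 and 4. Polr1a went the other way round, lower in embryo 1 in CPM (369 to 242) and higher in embryo 3 (0.0356 to 168). DESeq2 gave positive fold changes for these 5 genes, which turned negative with no term for the embryo (Med12 -1.82, Med7 -0.74, Med21 -1.37, Med26 -1.94 and Polr1a -0.32). Over all genes called in this comparison, 85.5% moved the same way in both pairs, against 11 of the 16 subunit genes.

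Polr2i and Polr3e were lower in both Fc-JAG1 libraries than in any washout library. Polr2i, a small subunit of polymerase II at the tip of the jaw (chr7:30231948-30233390, plus strand), had 979, 114 and 408 counts in the washout, 1556 and 737 in compE, and 67 and 0 with Fc-JAG1. DESeq2 gave -6.87 ± 2.06 and edgeR -6.34 ± 5.04. Exons of Polr2i share 26.8% of their bases with Tbcb, which also had 0 counts in Fc-JAG1 3 and 1397 to 5489 elsewhere. Polr3e, which with Polr3d forms a part of polymerase III related to TFIIF (chr7:120917744-120947432, plus strand), had 3399, 4252 and 3533, then 7735 and 3982, then 1156 and 0, with -6.15 ± 1.96 by DESeq2 and -5.57 ± 4.08 by edgeR. Both calls were lost without washout 3 or without Fc-JAG1 3, while the log2 fold change stayed at -5.13 or lower for Polr2i and -3.49 or lower for Polr3e in all 7 fits that left out a library. Leaving out washout 3 or Fc-JAG1 3 removes the same pair, that of embryo 3. The smallest edgeR p on the lower side was 0.19, for Polr3e, and the third gene, Polr2m, had -0.97 ± 1.30.

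**Figure D4:**
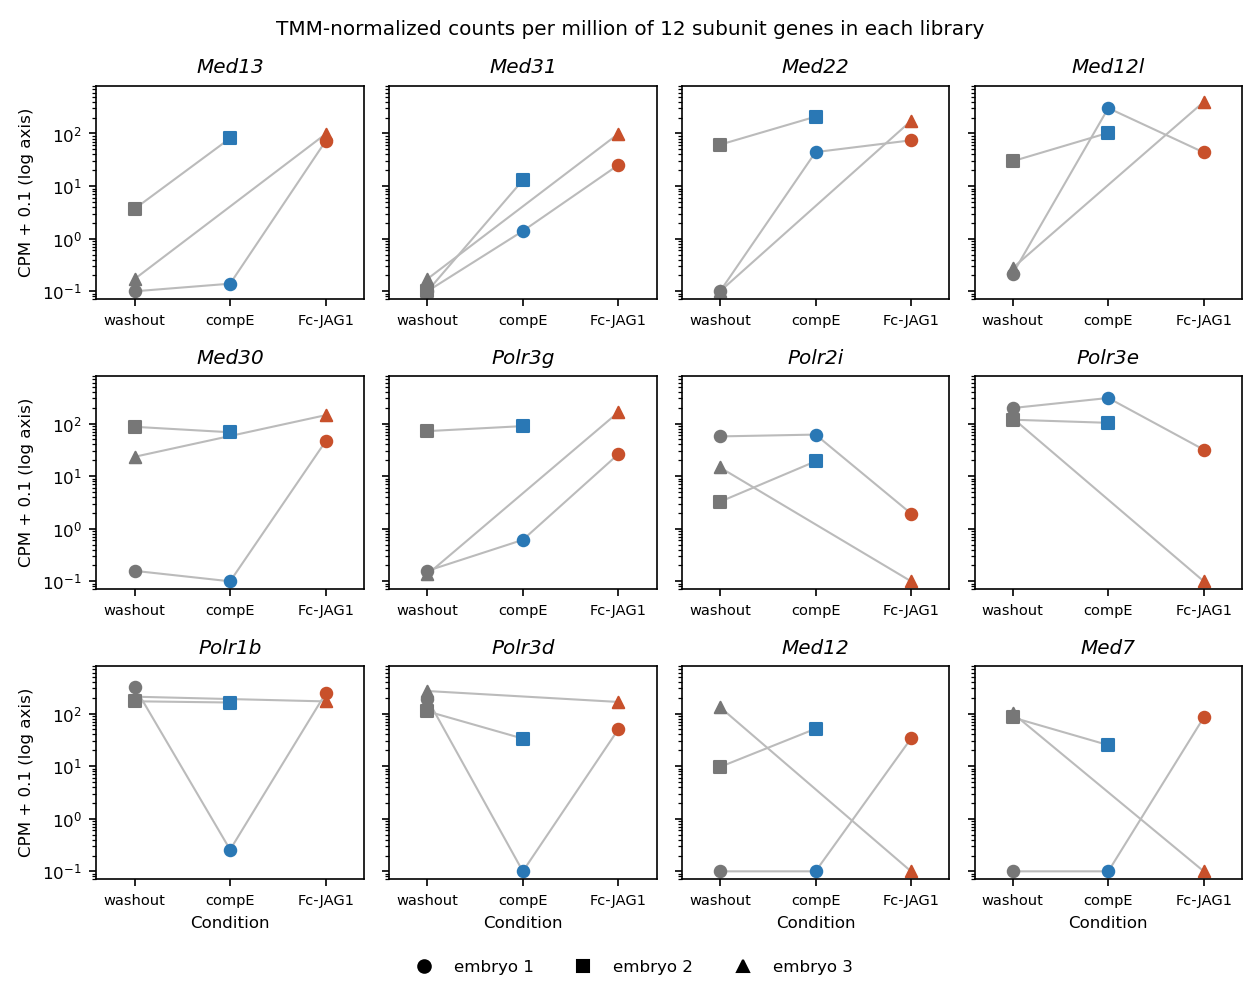
CPM plus 0.1 (log axis) of 12 subunit genes in the 3 conditions (x axis), 1 point per library, with lines between libraries of the same embryo number. In Med13 and Med31 all Fc-JAG1 points lie above all washout points, while in Med12 and Med7 the lines of embryo 1 and embryo 3 cross.

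The start regions of some genes called higher with Fc-JAG1 are shown because Notch acts on promoters through RBPJ, whose DNA site has the core TGGGAA. Polr3g did not stand apart, since washout 2 lay within its Fc-JAG1 range. Among the genes called higher that have a promoter matched, it alone holds this core. Med1, Med17 and Med27, also above the washout with Fc-JAG1, were not called and are not shown. Promoters were taken from RefSeq (GRCm38.p6) as the 250 bases before each start, for Med31, Med13, Med22 and Med12l, whose Fc-JAG1 libraries were all above the washout, and for Polr3g. They are written 5′ to 3′ on the strand of the gene, and capitals mark a match, on either strand, to that core or to 3 words common in promoters. These were the E-box CACGTG, the core CCGGAAG of the sites of ETS factors, and the TATA box TATAAA.
Med31 (chr11:72215593-72215842, minus strand): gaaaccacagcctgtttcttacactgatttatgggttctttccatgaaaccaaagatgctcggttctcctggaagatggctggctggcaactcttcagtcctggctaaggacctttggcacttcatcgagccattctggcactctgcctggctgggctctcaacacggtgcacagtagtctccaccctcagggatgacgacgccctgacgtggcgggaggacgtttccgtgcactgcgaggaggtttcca
Med13 (chr11:86357597-86357846, minus strand): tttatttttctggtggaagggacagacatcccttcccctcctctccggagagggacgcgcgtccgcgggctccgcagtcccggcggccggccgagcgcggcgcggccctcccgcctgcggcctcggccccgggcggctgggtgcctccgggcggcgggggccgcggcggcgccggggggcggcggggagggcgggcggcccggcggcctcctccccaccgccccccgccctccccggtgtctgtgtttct
Med22 (chr2:26910643-26910892, minus strand): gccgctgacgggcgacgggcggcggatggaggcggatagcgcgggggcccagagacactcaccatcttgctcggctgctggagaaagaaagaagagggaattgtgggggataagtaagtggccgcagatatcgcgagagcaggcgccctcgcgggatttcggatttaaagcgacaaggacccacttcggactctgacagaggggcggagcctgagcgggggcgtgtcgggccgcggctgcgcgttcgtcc
Med12l (chr3:59006728-59006977, plus strand): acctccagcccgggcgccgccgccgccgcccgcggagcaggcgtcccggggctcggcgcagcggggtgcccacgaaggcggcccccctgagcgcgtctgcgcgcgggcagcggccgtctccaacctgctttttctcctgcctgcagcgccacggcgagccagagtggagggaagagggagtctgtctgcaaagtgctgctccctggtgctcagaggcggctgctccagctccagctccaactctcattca
Polr3g (chr13:81711014-81711263, minus strand): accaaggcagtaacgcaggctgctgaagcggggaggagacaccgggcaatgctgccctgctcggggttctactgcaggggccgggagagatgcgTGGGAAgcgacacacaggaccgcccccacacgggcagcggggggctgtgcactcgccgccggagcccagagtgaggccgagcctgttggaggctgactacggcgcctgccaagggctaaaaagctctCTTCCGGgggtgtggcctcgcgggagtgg

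The windows of Med31, Med13, Med22 and Med12l held none of the 4 motifs. That of Polr3g held the RBPJ core at bases -156 to -151, counted back from the start, and the ETS core on the other strand at -29 to -23. The RefSeq start of Med12l lies 1153 bases inside the gene as GENCODE draws it, and the other 4 starts are within 35 bases of it. Of the 5 windows Med31 had the least guanine and cytosine, 55.2%. Among all 54 windows matched, for 48 of the 58 genes, 25.9% held the RBPJ core, against 21.6% of all 32851 promoters, and 1 of the 12 matched genes called higher with Fc-JAG1 did (Polr3g). The ETS core was in 20.4% of the subunit windows and 6.91% of all promoters, the E-box in 5.56% and 6.02%, and the TATA box in 9.26% and 12.4%. The ETS windows belong to Med4, Med10, Med14, Med15, Med17, Med19, Polr1c, Polr2f, Polr2j, Polr3b and Polr3g. None of the 4 words contains another, and a match describes the sequence alone.

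The second question is what the renewed block of Notch cleavage changed against the washout. edgeR called no subunit gene and none of the 9632 genes tested (0.0%), and 0 of the 54 (178 of all genes tested) had an unadjusted p under 0.05. The smallest was 0.0629, for Med12l. The median log2 fold change was -0.07 over the subunit genes and -0.13 over all genes. DESeq2 called 4 subunit genes higher and 4 lower of the 51 with enough counts (7.84% each way), against 6.06% and 3.92% of the genes tested. The washout libraries are the same as in the comparison with Fc-JAG1, so the lists of the 2 comparisons are not independent.

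Among the 4 higher genes were Med12l, Med22 and Med31, given above with their counts. Those named passed the filter on low counts only through compE and Fc-JAG1, so their values here are a description as well. Med12l had 304 and 103 CPM in compE against 0.116, 29.7 and 0.178 in the washout, and Med31 had 1.30 and 12.9 against 0, 0 and 0.0713, so these groups did not overlap. In Med22 washout 2 lay within the compE range. All 4 had under 10 counts in washout 1, as did 92.6% of the 584 genes called higher. The DESeq2 log2 fold changes were 9.33 ± 2.03 for Med12l, 9.80 ± 2.65 for Med22 and 8.78 ± 2.29 for Med31. With each library left out in turn, the calls of Med12l and Med22 held in 2 of 7 fits (1.74 to 11.76 and 1.72 to 12.51) and that of Med31 in 4 of 7 (6.57 to 11.25). The edgeR value of Med31, 9.16 ± 5.15, had an unadjusted p of 0.0937.

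The 4 lower genes were Polr1b, Polr2g, Polr3d and Med10, and all of them were nearly absent from compE 1. Polr3d, the partner of Polr3e, had 3262, 3966 and 7523 counts in the washout, 0 and 1289 in compE, and 1824 and 3920 with Fc-JAG1. Polr2g, which forms the polymerase II stalk with Polr2d, had 3497, 4661 and 4211, then 6 and 2391, then 4054 and 5185. Polr1b had 5499, 6152 and 5860, then 4 and 6271, then 8823 and 4007. Every compE library was below every washout library in CPM for these 3 genes, though compE 2 and washout 2 differed little for Polr1b (162 and 171 CPM). Med10, a middle subunit, had 4110, 2604 and 1899, then 0 and 3394, then 4665 and 2483, so compE 2 was above 2 of the washout libraries in CPM, and 92.8% of its exonic bases lie in another annotated gene, Gm26819. Under 10 counts in compE 1 were also 87.8% of the 378 genes called lower, against 28.9% of the genes tested. No subunit gene was called lower without compE 1, washout 1, washout 3, Fc-JAG1 1 or Fc-JAG1 3, and 11 were without washout 2 or without compE 2. Without compE 1, Med10 turned to 0.23.

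Of the 51 genes, 7 (13.7%) had both compE libraries above all washout libraries and 5 (9.8%) had both below, against 11.4% and 7.09% of the genes tested. Numbers this small cannot be set apart from the shares over all genes, and no test was made of them. All 7 but Polr3b belong to Mediator: Med1, Med12l, Med14, Med19, Med27 and Med31. Of these, Polr3b, Med12l and Med31 passed the filter on low counts only through compE and Fc-JAG1, so their values are a description. Med27 had 415 and 202 CPM against 6.68, 94.4 and 116, and was not called (DESeq2 2.99 ± 1.35). The 5 below were Polr1b, Polr1d, Polr2g, Polr2m and Polr3d, all of polymerases. These came from 24 Mediator and 27 polymerase genes with enough counts. In washout 1, 12 of 30 Mediator but 21 of 28 polymerase genes reached 10 counts. In compE 1, Polr1b, Polr2g and Polr3d were at 4, 6 and 0 counts. The part of these low counts in the split was not tested.

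The third comparison sets Fc-JAG1 against compE, that is an added ligand against blocked cleavage. Only embryo 1 has a library of both. edgeR called none of the 8839 genes tested (0.0%) and no subunit gene, with 0 unadjusted p under 0.05 among the 54 and 190 among all genes tested. The median log2 fold change was 1.70 over the subunit genes and 0.65 over all genes, and with DESeq2 size factors 1.49 and 0.37. DESeq2 called Med13, Med18, Med30, Polr3a and Polr3g higher and Polr2i lower, 10.6% and 2.13% of the 47 genes with enough counts, against 10.7% and 2.58% of the genes tested. The shares of the subunit genes are thus close to those of all genes.

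Each of the 5 higher genes was at 13 counts or fewer in compE 1. Med13 and Med18 passed the filter on low counts only through Fc-JAG1, so their values are a description. The CPM of compE 2 lay within or above the Fc-JAG1 values for all 5: 81.2 for Med13 against 71.6 and 97.8, 15.4 for Med18, which was above both Fc-JAG1 values, 68.1 for Med30 against 45.8 and 144, 139 for Polr3a against 81.0 and 185, and 89.2 for Polr3g against 26.1 and 164. The groups therefore overlapped for all 5. In Polr2i they did not, with 61.5 and 19.0 CPM in compE and 1.84 and 0 with Fc-JAG1. It was among 6 subunit genes with both Fc-JAG1 libraries below both compE libraries, while 8 had both above. The shares over all genes were not computed for this comparison. The log2 fold change of Polr2i was -7.51 ± 2.42 by DESeq2 and -7.12 ± 5.43 by edgeR, with an unadjusted edgeR p of 0.207. Med18 had the smallest edgeR p of this comparison, 0.0854 (7.90 ± 4.33), and turned to -0.33 with no term for the embryo.

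**Figure D5:**
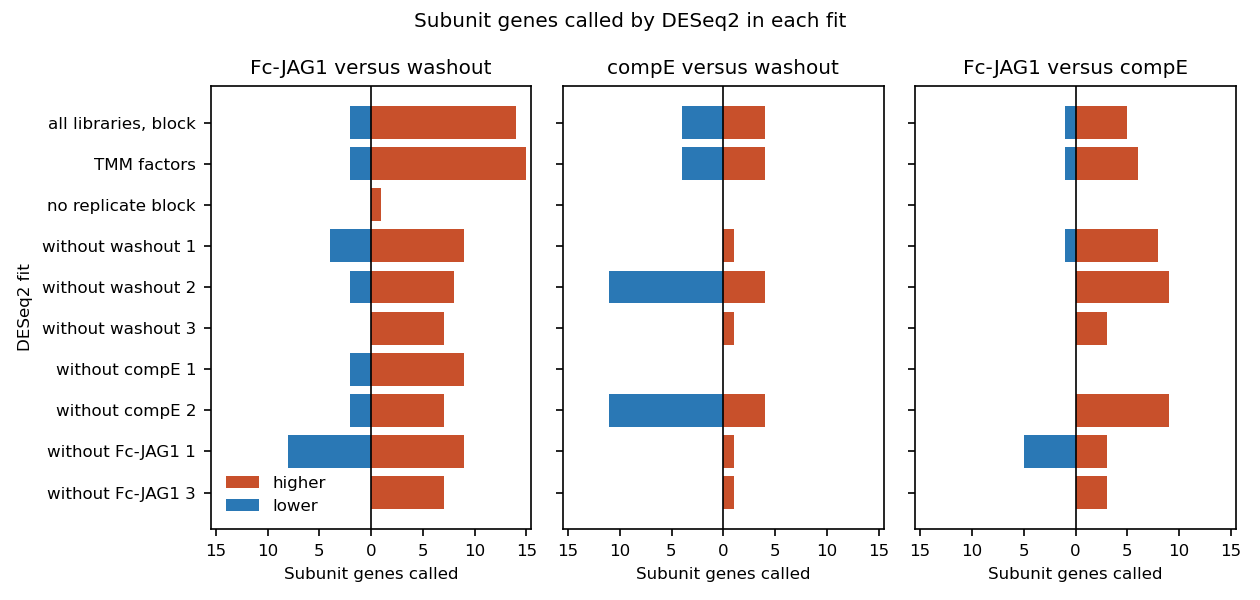
Number of subunit genes called higher (orange, to the right) and lower (blue, to the left) by DESeq2 in the 3 comparisons, for all libraries with a term for the embryo, with TMM factors, with no such term, and without each library in turn. Without the term, 1 gene (Med31, Fc-JAG1 against the washout) is called in the 3 comparisons together.

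The 3 libraries with the most genes allow a view in which few subunit genes are absent. Between Fc-JAG1 1 and washout 2 the median log2 difference of the 54 genes was 0.22 (quartiles -0.38 and 0.75), with 17 genes more than 2-fold apart (31.5%, against 35.0% of all genes tested), 10 higher and 7 lower. Between compE 2 and washout 2 it was 0.25 (quartiles -0.46 and 1.06), with 21 genes more than 2-fold apart (38.9%, against 33.9%), 14 higher and 7 lower. Between Fc-JAG1 1 and compE 2 it was -0.07 with 16 such genes (29.6%, against 35.3%). These are differences of log2(CPM + 1) between single libraries, and no test was made.

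The paralogs of the kinase module were not detected in the same libraries. Med12 reached 10 counts in washout 2, washout 3, compE 2 and Fc-JAG1 1, and Med12l in washout 2, both compE and both Fc-JAG1 libraries. In compE 1 and Fc-JAG1 3, where Med12 had 0 counts, Med12l had 7694 and 9438, while in washout 1 Med12 had 0 and Med12l 2. Med13l, the paralog of Med13, was counted in all 7 libraries (188, 3891 and 13629 in the washout, 9872 and 8197 in compE, 4927 and 850 with Fc-JAG1), so it was the paralog present where Med13 was at 0 to 2 counts. Of the 2 forms of the polymerase III subunit, Polr3gl stayed low (2, 141 and 0, then 2 and 199, then 32 and 13 counts) and, per kilobase of exon, below Polr3g wherever either reached 10. On that scale the highest CPM was 41.6 for Polr3g and 3.22 for Polr3gl.

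Factors that work with these complexes were taken as lists. Of the genes of the kinase that Med12 activates, Cdk8 was well counted throughout. It had 1624, 13894 and 4746 counts in the washout, 10828 and 8088 in compE, and 8247 and 14743 with Fc-JAG1. Ccnc had 4 and 69 counts in washout 1 and 3 and 950 to 4875 elsewhere. Cdk19 had 13 in washout 1, 126 in compE 1 and 1710 to 8677 elsewhere. None of Cdk8, Cdk19 and Ccnc was called. Of the 17 general factors of polymerase II tested, DESeq2 called 3 higher and 1 lower with Fc-JAG1, and 2 higher and 1 lower with compE. Over all genes tested the shares called higher and lower were 16.9% and 5.11% with Fc-JAG1 and 6.06% and 3.92% with compE, and the counts in these lists are to be read against them. The smallest p among them with Fc-JAG1 was that of Gtf2h2 of TFIIH, with 2, 4071 and 1 counts, then 7513 and 2458, then 4953 and 7301. Of the 25 pausing and elongation factors, 4 were called higher and 1 lower with Fc-JAG1, among them Nelfcd, a subunit of the pausing factor NELF, with 1, 1785 and 0, then 1 and 2072, then 1081 and 4952, where 16.9% and 5.11% of all genes were called. Against the washout, compE gave 1 call among the 25, Ssrp1 of the histone chaperone FACT, which was also called higher with Fc-JAG1. Gtf2h2 passed the filter on low counts only through compE and Fc-JAG1, and Nelfcd only through Fc-JAG1, so their values are a description. Gtf2h2 repeats the form of Med22, nearly absent from washout 1 and 3 and counted in washout 2. Nelfcd was nearly absent from compE 1 as well, as was Med13.

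For polymerase I, 1 of 7 factors, Taf1b of the promoter factor SL1, was called higher with Fc-JAG1, and none with compE. Of the 14 polymerase III factors tested, 3 were called higher and 1 lower with Fc-JAG1, and 3 higher and none lower with compE, against 16.9% and 5.11% of all genes with Fc-JAG1 and 6.06% and 3.92% with compE. Gtf3c5, a TFIIIC subunit, was in both lists (0, 4 and 0 counts, then 1771 and 420, then 238 and 62). It passed the filter on low counts only through compE and Fc-JAG1, and Taf1b only through Fc-JAG1, so their values are a description. Of the 3 polymerase I subunits under older names, DESeq2 called Twistnb higher with Fc-JAG1 (0, 2294 and 2330, then 0 and 2602, then 1378 and 1702). Its counts went opposite ways in the 2 embryos, from 0 to 1378 in embryo 1 and from 2330 to 1702 in embryo 3. Polrmt, the polymerase of mitochondria, had 8, 1739 and 1188 counts, then 10188 and 5605, then 4329 and 1, and was not called. edgeR called none of the genes in these lists in any comparison.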

How the data were processed

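Nascent RNA was measured in 7 libraries. Per the labels and methods, the authors used cutadapt 4.2 for trimming, STAR 2.7.8 for alignment to GRCm38, and featureCounts of Subread 2.0.1 to count unique reads per gene. The deposited table holds these raw counts, 1 column per library, not normalized. The strand setting is not given in the sources used here. The libraries carry no molecular identifiers. The deposited filtered counts hold the raw counts of the genes that passed the authors' filter, unchanged, and were the ones fitted. Deposited transformed values were not used. Symbols, positions and exonic lengths came from GENCODE M21 (55227 of 55487 identifiers matched).

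Conditions were compared by the quasi-likelihood test of edgeR 4.0.16 (R 4.3.3, TMM, terms for embryo number and condition), adjusted by Benjamini and Hochberg over 10311 genes. DESeq2 1.42.0 with the same terms was the first alternative, and it is the test that the study's methods give (there version 1.38.3). Calls had an adjusted p below 0.05 and 10 or more counts in 2 libraries of either condition. Both tests were tested on simulated data. At the spread of these libraries DESeq2 also called many genes that had been left unchanged, and edgeR found few of the changed ones. SE of edgeR is the fold change over the root of F. CPM is the count per 1000000 of the TMM-scaled library size. The labels number the embryos and the methods state the pairing. Deviations of the 5 same-numbered pairs correlated at -0.0854 to 0.0915. The p-values measure the spread between these libraries, which hold 300 to 400 cells each.

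Named were genes that DESeq2 called, the largest and landmark subunits, genes with 10 counts in all libraries, the 3 smallest edgeR p on each side, and paralogs. A single subunit gene enters the counts and fits but is not reported by name here. Members and lists were chosen with earlier results of these data known.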

Additional observations from a re-analysis of the deposited data

How the results depend on the processing

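edgeR called 0 subunit genes in each comparison under every alternative run with it (no block for the embryo number, the size factors of DESeq2, no filter on low counts, and each library left out). DESeq2 called 16 with Fc-JAG1 against the washout, 8 with compE against the washout and 6 with Fc-JAG1 against compE, and its counts moved most. With no replicate block, that is without the pairing by embryo, it called 1 higher and 0 lower with Fc-JAG1 against the washout and 0 in the other comparisons. Without the block and also without washout 1 and 3, an alternative added after seeing the data, it called 1 higher and 0 lower in each comparison with the washout. That fit has washout 2 alone, as fits without a compE or Fc-JAG1 library have 1 library of that condition, and the lone library is assumed to vary like the others. Leaving out 1 library of an embryo that has 2 also leaves its partner with a term of its own, so that it no longer bears on the comparison. Leaving out each library in turn gave 7 to 9 higher and 0 to 8 lower with Fc-JAG1 against the washout, 0 to 4 higher and 0 to 11 lower with compE against the washout, and 0 to 9 higher and 0 to 5 lower with Fc-JAG1 against compE. The 11 lower with compE came without washout 2 or without compE 2, and the 8 lower with Fc-JAG1 came without Fc-JAG1 1. With TMM factors in DESeq2 (added after seeing the data) the counts were 15 and 2, 4 and 4, and 6 and 1.

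Directions turned with no replicate block for Med12 (-1.82), Med21 (-1.37), Med26 (-1.94), Med7 (-0.74) and Polr1a (-0.32) against the washout, and for Med18 (-0.18, and -0.33 with edgeR) and, with edgeR, Polr3gl (-1.86) against compE. Without the block and without washout 1 and 3 they turned for Med21 (-1), Med7 (-1), Polr1a (-0.10) and Polr2f (-1.12). With each library left out, the DESeq2 log2 fold change with Fc-JAG1 against the washout ran from -14.08 to 11.96 for Med12, -11.15 to 12.23 for Med21, -8.01 to 10.00 for Med26, -13.68 to 11.94 for Med7 and -1.40 to 12.18 for Polr1a. With compE it ran from -14.90 to 0.23 for Med10. The cause was not tested. Of 274 DESeq2 values of the called genes named here under alternatives, 127 kept their direction and call, 120 lost the call and 27 turned. At a minimum of 1 count in place of 10, 45 subunit genes were detected in washout 1, and at 100 counts 29.

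The limits are 2 or 3 libraries per condition, amplified RNA of few cells without molecular identifiers, and libraries that differ in the genes they hold. Counts over exons shared with other genes cannot be divided between them.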
